A study of Mus musculus with 2343 samples.

Results

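The cells described here are single medullary thymic epithelial cells of mice, labelled mTEChi and sorted as negative for the reporter ZsGreen (ZsGneg cells). Their strain is named Eedflfl::ZsGreen::beta5tCre, so they carry floxed alleles of Eed, a ZsGreen reporter and a Cre recombinase. They were chosen by label, from 4 sets of wells that share a name prefix (SCGC1373, SCGC1379, SCGC1380 and SCGC1381) and are called plates here. A well was kept when it held at least 50000 counts in genes and at least 1000 genes with a count, which left 330 ZsGneg cells (70.4% of their wells), out of 1438 cells kept over the whole series. ZsGpos cells are of the same strain and source and were sorted as ZsGreen positive (53, 73, 89 and 2 cells on the 4 plates). Cells titled WT have the strain name Eedflfl::ZsGreen, with no Cre in it, and were ZsGreen negative (48, 51, 110 and 77 cells). Floxed Eed and the reporter are thus common to all 3 groups. The same 3 sorts were also sequenced in bulk from about 1000 cells each, with 4 ZsGneg, 4 ZsGpos and 9 WT libraries. Single cortical epithelial cells titled WT, of which 70.8% of wells were kept, serve below as a reference. Their titles name none of the 4 plates. They held a median of 538740 gene counts, against 303038 in ZsGneg cells. Added ERCC spike-in RNA had a median share of 0.108%, against 39.8% in ZsGneg cells. Cell type and preparation thus cannot be told apart in comparisons with them. The labels name no animal, age or sex, and do not say that plates or bulk libraries come from separate animals. The Cre is driven by the gene of the proteasome subunit beta5t (Psmb11), which is active in cortical epithelium and in progenitors that also give rise to medullary cells. Whether Eed was deleted in reporter-negative cells is not given in the labels.

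Medullary thymic epithelial cells show developing T cells a sample of the body's own proteins, so that T cells that bind them are deleted or turned into regulatory T cells. Mature medullary cells carry dense MHC class II on their surface and produce the transcriptional regulator Aire and the transcription factor Fezf2, which each drive the expression of genes that are otherwise limited to single tissues. Each cell expresses only some of these tissue antigens at a time. Eed is a core subunit of Polycomb repressive complex 2 (PRC2), which places the repressive mark H3K27me3 on histones.

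The 6 genes taken to mark these cells were Aire, Fezf2, H2-Aa (alpha chain of the MHC class II molecule I-A), Cd74 (the invariant chain that escorts class II), Fos (a subunit of the AP-1 factor that is induced within minutes of a stimulus) and Mdk (the secreted growth factor midkine). RefSeq's promoter table for GRCm38.p6 held 4 of the 6. The 120 bases before the annotated start of H2-Aa, of its class II partner H2-Eb1, of Aire and of Fos are shown because the class II genes moved together from cell to cell while Aire and Fos each followed other genes. Capitals mark matches to 4 motifs that were searched on both strands in all 4 sequences: ATTGG (the core of the Y box of class II promoters, read CCAAT on the other strand), TGACGTCA (the cAMP response element), TGACG (its first 5 letters, which lie within it) and TATAAA (the TATA box).
H2-Aa, chr17:34287824-34287943, minus strand: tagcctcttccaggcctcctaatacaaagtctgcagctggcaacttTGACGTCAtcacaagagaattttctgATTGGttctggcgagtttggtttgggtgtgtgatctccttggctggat
H2-Eb1, chr17:34305747-34305866, plus strand: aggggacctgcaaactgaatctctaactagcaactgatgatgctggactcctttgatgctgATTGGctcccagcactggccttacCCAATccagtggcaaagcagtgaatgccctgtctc
Aire, chr10:78043611-78043730, minus strand: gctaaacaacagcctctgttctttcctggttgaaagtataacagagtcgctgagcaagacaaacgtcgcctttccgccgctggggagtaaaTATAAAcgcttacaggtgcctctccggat
Fos, chr12:85473770-85473889, plus strand: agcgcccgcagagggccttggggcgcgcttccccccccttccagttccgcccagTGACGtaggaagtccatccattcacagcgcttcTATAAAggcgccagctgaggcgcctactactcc

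In H2-Aa, ATTGG lay 48 to 44 bases and TGACGTCA 74 to 67 bases before the start. H2-Eb1 held ATTGG 59 to 55 bases and CCAAT 35 to 31 bases before its start. Neither class II promoter held TATAAA in this window, whereas Aire held it 29 to 24 bases and Fos 33 to 28 bases before the start. Fos also held TGACG at 66 to 62 bases. Of 32851 mouse promoters, 21.3% held ATTGG, 1.24% TGACGTCA, 11.7% TGACG and 6.34% TATAAA within the same 120 bases. These matches describe letters and no binding was measured.

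The kept ZsGneg wells held a median of 303038 counts (50204 to 1233624), with plate medians of 219371, 413873, 294902 and 269941, and a median of 5276 genes. Nearest to the threshold, the last well left out held 49126 counts and the first kept held 50204. On genes, the corresponding wells held 910 and 1105. To compare shares of cells, each cell was thinned to 50000 reads, after which it held a median of 4246.5 genes (4718.5, 3896, 4596.5 and 3845 by plate). Mitochondrial genes took a median of 4.41% of counts, with 16 cells above 20%, of which 7 each were on plates SCGC1380 and SCGC1381. Among 14 wells labelled as holding no template, 3 wells of plate SCGC1380 passed the same filter with 51838, 73567 and 67466 counts and held 10822, 6593 and 8212 CPM (counts per 1000000 gene counts) of H2-Aa. The other 11 held under 1000 counts each. Levels below are CPM of the summed counts of a plate's cells. CPM does not correct for gene length, so levels of different genes are not compared. A group of cells is 1 sample, so single-cell differences carry no test. Intervals on shares are exact binomial ones at 95% and, like all floors given here, cover counting error only, since amplified reads were not tied to single molecules by identifiers.

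Class II presentation genes were among the genes with the most counts in ZsGneg cells. H2-Aa had 12592, 14223, 11391 and 11036 CPM on plates SCGC1373, SCGC1379, SCGC1380 and SCGC1381 (12310 ± 1439, SD over 4 plates), and Cd74 had 23394, 16685, 18221 and 18104 CPM (19101 ± 2946). Both were read in every thinned cell (100%, interval 98.9% to 100%). The highest plate stood 1.29-fold above the lowest for H2-Aa and 1.4-fold for Cd74. In single cells H2-Aa ranged from 33.7 to 38423 CPM around a median of 10630, and 94.8% of cells reached 1000 CPM. The cells below that level were not spread evenly, as 85 of 86 cells reached it on plate SCGC1373, 88 of 89 on SCGC1379, 64 of 70 on SCGC1380 and 76 of 85 on SCGC1381.

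All 13 members of the class II list reached 10 CPM in ZsGneg cells and 12 were read in at least 50% of them. H2-Ab1, the beta chain paired with H2-Aa, had 12482, 14767, 9504 and 10530 CPM. H2-Eb1, the beta chain of I-E, had 7381, 8056, 5841 and 6241 CPM. H2-DMb2, a chain of the peptide exchanger H2-DM, had 1420.2, 2238, 1505 and 1809 CPM, and Ciita, the master activator of class II transcription, 274.7, 197.1, 265.5 and 230.2 CPM. The exception was H2-Ob, a chain of the H2-DM inhibitor H2-O, which was read in 44.8% of cells. Summed over the list, the level was 60548, 60743, 49913 and 51853 CPM by plate, against 55989, 50630.4, 53883 and 54078 CPM in WT cells and 46166, 53252 and 54930.3 CPM in ZsGpos cells of the first 3 plates. The 3 groups overlapped. WT cortical cells, a cell type with its own class II, had 28353 CPM.

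The class II genes also varied together from cell to cell. Over 7201 genes read in at least 20% of the 330 cells, the 3 whose thinned reads ranked cells most like H2-Aa were H2-Eb1 (Spearman coefficient averaged over the 4 plates 0.86), H2-Ab1 (0.79) and Cd74 (0.78). These coefficients are descriptions, since cells of a plate share a library preparation. Thinning evened the reads of the cells but not the number of genes they held. Class I presentation was as general: all 14 of its listed members reached 10 CPM and 12 were read in at least 50% of cells, and the list summed to 43439.9, 40999.6, 36239 and 40006 CPM. The 10 genes with the most counts, mitochondrial genes left out, were Rn18s-rs5 (18S ribosomal RNA), Cd74, B2m (the class I light chain), H2-Aa, H2-Ab1, Malat1 (a nuclear long noncoding RNA), Actb (beta actin), H2-K1, H2-D1 and H2-Eb1. With mitochondrial genes included in the ranking, the 10 genes with the most counts took 15.8% of all counts.

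**Figure D1:**
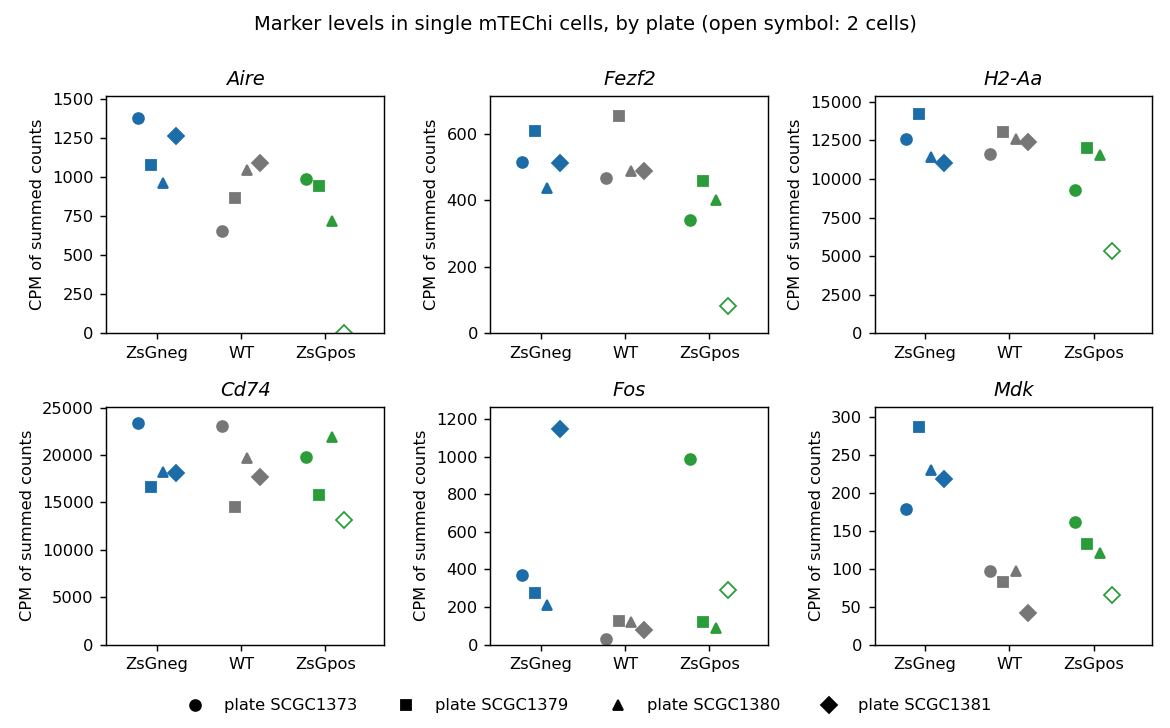
CPM of summed counts for the 6 marker genes in ZsGneg, WT and ZsGpos cells, 1 panel a gene, with a symbol for each plate and an open symbol where a plate holds 2 cells. Fos and Mdk of the ZsGneg cells lie above the WT symbols of the same plate, and the ZsGneg Fos symbol of plate SCGC1381, at 1150 CPM, stands above the other 3 ZsGneg plates.

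Aire and Fezf2 were both present in most ZsGneg cells, Aire in widely different amounts. Aire had 1380.99, 1077, 961.3 and 1265 CPM by plate (1171 ± 187.8), and Fezf2 514.9, 607.0, 435.1 and 512.99 CPM (517.5 ± 70.3). After thinning, Aire was read in 79.7% of the 330 cells (interval 74.9% to 83.9%) and Fezf2 in 85.5% (interval 81.2% to 89.1%). WT cortical cells, which should lack both, had reads of Aire in 2.21% and of Fezf2 in 4.78% of cells at the same depth. By plate the share with Aire was 89.5, 78.7, 77.1 and 72.9%, and with Fezf2 93, 85.4, 87.1 and 76.5%, the highest of both on plate SCGC1373 and the lowest on plate SCGC1381. WT cells had Aire in 84.3% and Fezf2 in 81.8% of cells, and ZsGpos cells in 74.2% and 79.7%.

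In unthinned cells the median of Aire was 751 CPM, with quartiles of 44.4 and 1719 CPM and a highest cell of 5872 CPM. A level of 1000 CPM was reached by 43.03% of cells, while 44 cells held no Aire read. Plate medians were 1153, 686.7, 344.1 and 739.9 CPM, a wider spread than that of the summed levels. Genes whose thinned reads ranked the cells most like Aire were Hdc (histidine decarboxylase, 0.70), S100a14 (a calcium-binding protein, 0.65) and Cdx1 (an intestinal homeobox factor, 0.65). Aire itself had coefficients of 0.56 with H2-Aa and with Cd74 and of 0.42 with Fezf2.

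**Figure D2:**
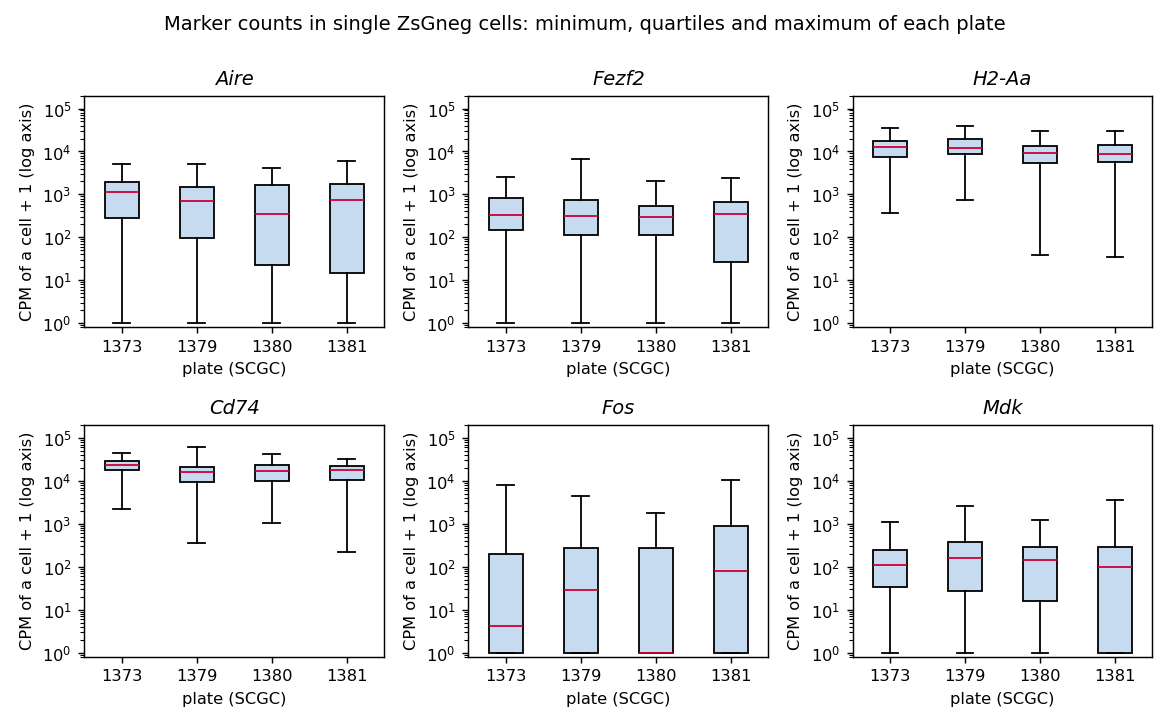
CPM of the 6 markers in single ZsGneg cells of each plate, with 1 added, on a log axis: whiskers reach the lowest and highest cell, boxes span the quartiles and red lines are medians. H2-Aa and Cd74 form narrow high boxes, Aire spans from no read to 5872 CPM, and the box of Fos reaches highest on plate SCGC1381.

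Cells grouped by reads of both regulators after thinning differed in their class II levels. Both genes were read in 240 cells (72.7%), Aire alone in 23, Fezf2 alone in 42 and neither in 25 (7.58%). Median H2-Aa was 12782 CPM with both, 5708 with Aire alone, 5537 with Fezf2 alone and 2673 with neither. Cd74 had the same order at 20934, 16810, 10767 and 7044 CPM. Cells without either regulator were 1 of 86 on plate SCGC1373, 6 of 89 on SCGC1379, 6 of 70 on SCGC1380 and 12 of 85 on SCGC1381. Depth and complexity moved with these groups: median totals were 327052, 174422, 299974 and 196432 counts, and thinned cells held medians of 4395, 3278, 3994 and 2734 genes. Their part in the class II difference was not tested. Epcam, the epithelial adhesion molecule, was read in 19 of the 25 cells with neither regulator. Genes listed for immature, class II low medullary cells summed to 10439 CPM in cells with Fezf2 alone, 5924 with neither, 4387 with both and 2005 with Aire alone.

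The rest of the maturation list was broadly present. Of its 15 members, 14 reached 10 CPM and 10 were read in at least 50% of cells, and Prdm1 was the member below 10 CPM. Cd40, the receptor through which T cells license these cells, had 374.4, 553.7, 396.6 and 510.2 CPM. The costimulator Cd80 had 70.2, 19.3, 39.1 and 55.6 CPM, highest on plate SCGC1373 and lowest on SCGC1379. The list summed to 4112, 3553, 3327 and 4319 CPM, against 2631, 3393, 3595 and 3721 in WT and 2838, 3129 and 2581 in ZsGpos cells. The ZsGneg plates overlapped with WT and lay above all 3 ZsGpos plates.

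Epithelial identity genes were present as well. Keratin Krt8 had 2508, 2588, 2153 and 2238 CPM and was read in 97.9% of cells, and Epcam had 894.8, 944.5, 1024 and 1031 CPM and was read in 93.3%. Krt5, a basal keratin, was uneven: it had 853.6, 342.4, 632.5 and 222.5 CPM by plate, its median cell held 6.65 CPM, 50 cells exceeded 1000 CPM and 1 reached 18622. Of 17 listed thymic epithelial genes, 16 reached 10 CPM and Hoxa3 did not. The cortical list summed to 2275, 2205, 1938 and 1484 CPM, against 18386 CPM in WT cortical cells. Psmb11 itself, whose promoter drives the Cre, was read in 2.73% of thinned ZsGneg cells and had 0.121, 23.4, 8.75 and 23.6 CPM. Cxcl10, an interferon-induced chemokine, had 2192, 1496, 1669 and 1911 CPM, while Ccl5, a T cell attractant, had 166.6, 101.1, 116.7 and 652.6 CPM and Ccl22, which attracts regulatory T cells, 26.8, 50.4, 26.7 and 269.7 CPM. Both CC chemokines were highest on plate SCGC1381.

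Genes of other cell types were low but not absent. The T cell list summed to 279.03, 302.4, 205.5 and 250.6 CPM, the B cell list to 234.03, 275.8, 291.9 and 456.9 CPM and the myeloid and dendritic list to 1044, 1524, 993.5 and 1050.5 CPM. Most of the last was Lyz2 (lysozyme), at 907.8, 1375, 761.9 and 860.2 CPM, whereas the dendritic integrin Itgax had 0, 4.06, 9.97 and 2.86 CPM. Fibroblast genes summed to 476.7, 455.9, 235.9 and 313.5 CPM and endothelial genes to 52, 38.9, 50.8 and 26.9 CPM, with Cdh5, the cadherin that defines endothelium, at 0 on every plate. In 12 cells (3.64%), at least 10 of the 16 T cell genes were read after thinning. Among all ZsGneg cells, 12 held between 8 and 11 of them, near that threshold. T cell genes summed to 4154 CPM in those 12 cells and to 135.2 CPM in the rest. Of the 12, 11 also exceeded 1000 CPM of H2-Aa, 11 held Epcam and 9 held Aire, and their median total was 275016 counts. Doublets were not called, and the labels describe no gate that would remove them.

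Tissue antigens were read in few cells each. Of 89 listed antigens, 88 had a row and 49 reached 10 CPM, yet only 5 were read in at least 50% of cells and 4 had no read at all. Reg3g, an antibacterial lectin of the gut, had 1414, 1049.6, 1235 and 954.7 CPM by plate, the milk casein Csn2 1455, 908.5, 639.7 and 1009 CPM and the neuropeptide gene Calcb 1101, 873.0, 947.8 and 1063 CPM. These levels rested on unequal cells: Reg3g was read in 65.8%, Csn2 in 62.1% and Calcb in 78.8% of cells. A cell held reads of a median of 7 of the 88 antigens and of 29 at most. At least 10 were read in 42 of 86 cells on plate SCGC1373 (48.8%), 29 of 89 on SCGC1379 (32.6%), 15 of 70 on SCGC1380 (21.4%) and 16 of 85 on SCGC1381 (18.8%), so plate SCGC1373 stood highest, as it did for the share with Aire. The list summed to 8616, 6998, 5535 and 6043 CPM, against 6948, 13431, 8643 and 15029.9 CPM in WT cells and 374.6 CPM in WT cortical cells. It was above WT on plate SCGC1373 and below WT on plates SCGC1379, SCGC1380 and SCGC1381.

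Among the 3662 genes of at least 50 CPM, 2341 were read in over 50% of ZsGneg cells and 55 in under 10%. The fewest cells held Mmp3 (a matrix metalloproteinase), read in 5 cells (1.52%) with a highest cell of 7835 CPM. Clca1, a mucus regulator of goblet cells, was read in 14 cells, the highest of which held 26957 CPM. Its plate levels were 5.43, 228.1, 8.6 and 3.03 CPM. Rhox12, Angpt4, Fgg, Oas1e, Tmem8c, Actc1, Prss2 and Csn1s2a completed the 10 genes with the fewest cells, read in 9 to 14 cells each. Genes read in few cells were also among those with the largest differences between plates. Apoa1, an apolipoprotein of liver and gut, had 145.1, 581.0, 128.5 and 0 CPM and was read in 24 cells, and Spp1 (osteopontin) had 141.2, 28, 0.354 and 630.4 CPM from 22 cells, the highest at 34036 CPM. Reg3b had 424.998, 160.3, 0 and 22.2 CPM from 14 cells, and Avp (vasopressin) 170.8, 1.16, 0 and 0 CPM from 7 cells. Gp2, a surface protein of microfold cells, had 169.97, 0, 41.2 and 14.6 CPM from 21 cells. Over 4886 genes of at least 50 CPM on 1 plate, the highest plate was a median of 1.67-fold above the lowest, with 400 genes over 4-fold.

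**Figure D3:**
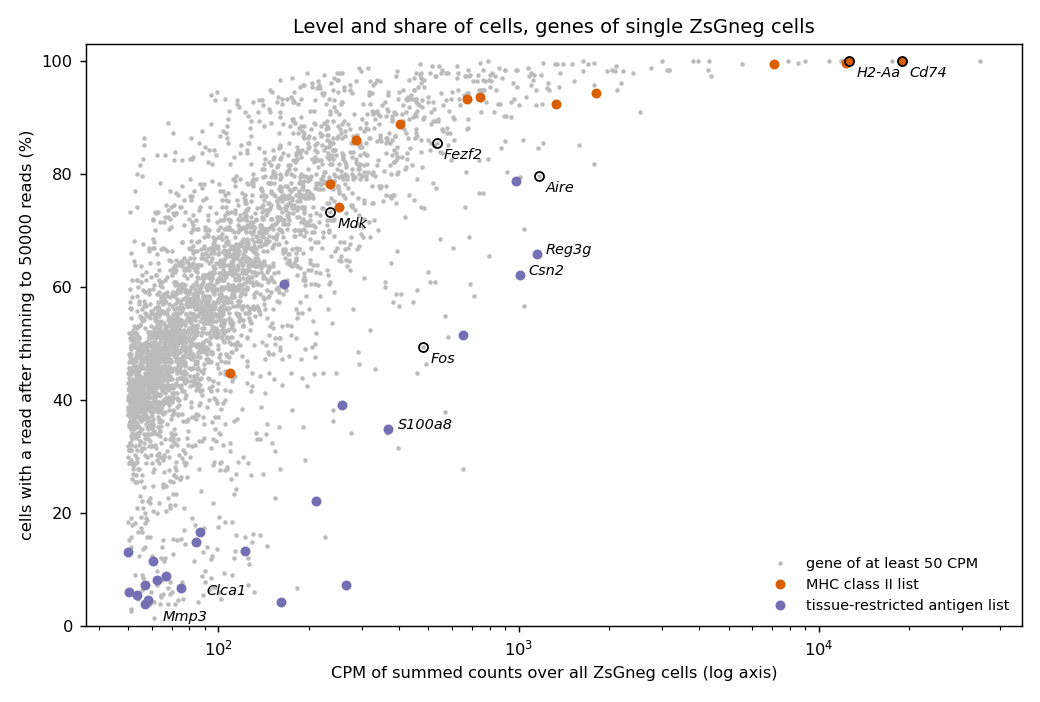
Genes of at least 50 CPM in ZsGneg cells (grey), with the MHC class II list (orange), the tissue antigen list (purple) and the 6 markers (ringed), placed by the CPM of all cells' summed counts (log axis) and by the percentage of thinned cells with a read. Most genes follow a rising band, and antigens such as Csn2 and S100a8 lie below it, with fewer cells than other genes of their CPM.

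Fos set plate SCGC1381 apart. It had 372.8, 277.1, 209.2 and 1150.1 CPM on the 4 plates (502.3 ± 437.04), the highest of them on SCGC1381. The median cell held 11.3 CPM, 41.5% of cells held no read and 43 cells exceeded 1000 CPM, of which 11, 7, 4 and 21 were on the 4 plates. After thinning it was read in 49.4% of cells (interval 43.9% to 54.9%), by plate in 41.9, 52.8, 42.9 and 58.8%. WT cells had 27.8, 124.2, 121.3 and 78.4 CPM and ZsGpos cells 989.2, 121.4 and 87.5 CPM on the first 3 plates, so the ZsGneg level was above WT on all 4 plates. It was above ZsGpos on plates SCGC1379 and SCGC1380 and below it on SCGC1373. Fos was read in 49.4% of ZsGneg, 36% of WT and 41.9% of ZsGpos cells.

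Most other early response genes were also highest on plate SCGC1381. Egr1 (an immediate early zinc finger factor), Jun and Fosb ranked cells most like Fos, with coefficients of 0.51, 0.48 and 0.44. The list of early response and heat shock genes summed to 2417, 2071, 1874 and 6099 CPM, and 19 of its 22 members of at least 10 CPM were highest on plate SCGC1381, where 24.1% of 10258 genes were. Hspa1a, an inducible heat shock protein, had 315.4, 264.5, 357.9 and 1221 CPM. Junb, another AP-1 subunit, had 344.9, 264.4, 171.2 and 557.2 CPM, and the MAP kinase phosphatase Dusp1 114.2, 98.2, 72.6 and 451.2 CPM. At least 10 members were read in 27 of 86, 27 of 89, 17 of 70 and 48 of 85 cells. Leaving out cells with over 20% mitochondrial counts, an alternative chosen after seeing the data, left the sum on plate SCGC1381 at 6054 CPM over 78 cells. WT cells summed to 1087, 1666, 1723 and 1430 CPM, ZsGpos cells to 4409, 1582 and 1508 CPM and WT cortical cells to 5365 CPM. Tissue digestion precedes the sort in all groups, and its part in these levels was not tested.

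Mdk was present in most ZsGneg cells and highest in cells with cell cycle transcripts. It had 178.98, 286.5, 230.4 and 219.02 CPM (228.7 ± 44.4) and was read in 73.3% of thinned cells (interval 68.2% to 78.03%), against 96.4, 82.7, 96.5 and 41.4 CPM and 50% of cells (interval 44.1% to 55.9%) in WT. ZsGpos cells had 161.2, 132.2 and 120.5 CPM and 74.7% (interval 68.3% to 80.3%). The ZsGneg level was above WT and above ZsGpos on each of these plates. Genes that ranked cells most like Mdk were Tmsb10 (thymosin beta 10, 0.65), Ppia (cyclophilin A, 0.60) and Erh (0.58).

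At least 10 of 37 cell cycle genes were read in 85 thinned ZsGneg cells (25.8%, with 25, 19, 20 and 21 by plate), and 34 cells lay near that threshold, at 8 to 11 members. Mdk had 278.4, 402.6, 329.5 and 409.5 CPM in these cells and 132.9, 243.8, 173.9 and 124.3 CPM in the rest, higher on 4 of 4 plates. Aire had 1051, 921, 565 and 894 CPM against 1534, 1134, 1188 and 1450 CPM, lower on 4 of 4 plates, although it was read in 87.1% of them and in 77.1% of the rest. H2-Aa was likewise lower, at 9490, 12153, 8134 and 7516 against 14031, 14985, 13248 and 12786 CPM. Tissue antigens summed to 3017 CPM in the 85 cells and to 8650 CPM in the rest. The 85 cells were deeper, with a median of 393110 against 271783 counts, and held more genes after thinning, 5053 against 3930. Neither was tested for its part in these differences.

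Eed itself had 39, 45.4, 57.1 and 44.7 CPM in ZsGneg cells and was read in 44.8% of them. WT cells had 40.3, 45.7, 29.8 and 45.8 CPM and ZsGpos cells 11.2, 36.4 and 14.6 CPM. The ZsGneg and WT ranges overlapped and the ZsGpos level was below ZsGneg on each of the 3 plates. A count over the whole gene does not show whether its floxed part was deleted. Ezh2, the methyltransferase of PRC2, had 48.1, 66.7, 78.3 and 62 CPM, and the histone-binding subunit Rbbp7 312.5, 423.2, 471.05 and 471.9 CPM against 929.3, 557.1, 573.7 and 756.4 CPM in WT. Genes known as targets of Polycomb were low: of 39 Hox genes, 1 reached 10 CPM and 6 had no read, and the senescence inhibitor Cdkn2a had 1.13, 0.527, 0.101 and 0.171 CPM. The Hox genes summed to 33, 70.8, 52.3 and 25.5 CPM in ZsGneg cells. They were low in the other sorts too, at 12.3, 47.8, 52.7 and 52.6 CPM in WT and 84.8, 64.7 and 63.5 CPM in ZsGpos cells. The ZsGneg range overlapped with both. Cdkn1c, an imprinted inhibitor of the cell cycle, had 11.5, 13.9, 13.5 and 11.1 CPM in ZsGneg cells, 31.5, 563.9, 59 and 137.8 CPM in WT and 585.5, 104.7 and 54.2 CPM in ZsGpos cells, lower in ZsGneg on every plate.

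Plates also differed in genes of sex and of single loci, and these differences cross the comparisons with WT and ZsGpos. Reads of Y-linked genes were found in 80 of 86 ZsGneg cells on plate SCGC1373 and 62 of 70 on SCGC1380. On plates SCGC1379 and SCGC1381 they were found in 0 of 89 and 0 of 85 cells, which allows a share of up to 3.37% and 3.53%, while Xist, the RNA of the inactive X chromosome, was read in 77 cells on each. WT cells carried Xist on all 4 plates (44 of 48 cells on plate SCGC1373, which had the lowest share). ZsGpos cells of plates SCGC1373, SCGC1379 and SCGC1380 carried Y-linked reads in 53 of 53, 66 of 73 and 79 of 89 cells. Both sorts thus had Xist on plates SCGC1379 and SCGC1381 for the comparison with WT, and Y-linked reads on SCGC1373 and SCGC1380 for the comparison with ZsGpos. On the Xist plates Mdk was 286.5 against 82.7 CPM and 219.02 against 41.4 CPM in ZsGneg and WT.

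Of 3561 genes read in at least 50% of ZsGneg cells on 1 plate, 6 were read in under 2% on another: the Y-linked Ddx3y and Eif2s3y, Xist, Mnda, Skint4 and Skint9. This rule was set after the values were seen. Mnda, an interferon-inducible nuclear protein, was read in 59.3, 0, 67.1 and 56.5% of ZsGneg cells by plate, in 54.2, 3.92, 2.73 and 49.4% of WT cells and in 62.3, 43.8 and 36% of ZsGpos cells of the first 3 plates. Skint4, of a family that selects epidermal gamma delta T cells, was read in 66.3, 37.1, 0 and 56.5% of ZsGneg, 2.08, 47.1, 51.8 and 66.2% of WT and 45.3, 0 and 0% of ZsGpos cells. Skint9 shared its blank on ZsGneg plate SCGC1380, with 46.5, 29.2, 0 and 58.8%. On plate SCGC1380 both Skint genes were at 0% in ZsGneg and in ZsGpos cells but not in WT cells, and on plate SCGC1379 Mnda was at 0% in ZsGneg cells, 3.92% in WT and 43.8% in ZsGpos cells. Skint and Mnda belong to families with close copies, and the sources used here do not say how shared reads were counted.

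Against WT cells, 14 of 11302 genes of at least 10 CPM were at least 2-fold higher in ZsGneg cells on all 4 plates (0.124%) and 31 at least 2-fold lower (0.274%). This is a rule of size without a test. The higher genes were Olah, Angpt2, Ces1g, Cd79a, Avpr1a, Adam28, Dusp1, Gpr183, Kremen2, Arhgap22, Nnat, Dusp2, Sptlc3 and Efcab3. These 14 were read in 4.24% (Olah) to 38.2% (Dusp1) of thinned ZsGneg cells. Olah, a thioesterase of fatty acid synthesis, had 64.2, 15.6, 29.7 and 5.64 CPM in ZsGneg and 0.127, 2.65, 2.22 and 0 CPM in WT cells. Kremen2, a co-receptor of the Wnt inhibitor Dkk1, had 110.5, 103.6, 80.7 and 86.2 against 48.4, 30.8, 22.4 and 25.9 CPM. The B cell receptor component Cd79a had 31.9, 42, 42.2 and 80.5 against 0.382, 5.36, 15.5 and 16.2 CPM, a difference that stood beside B cell list sums of 234.03, 275.8, 291.9 and 456.9 CPM in ZsGneg and 77.5, 165.1, 110.2 and 385.1 CPM in WT cells, and its part was not tested. The imprinted gene Nnat had 111.99, 122.1, 100.6 and 35.2 against 23.4, 18.9, 34.2 and 15.4 CPM. For these 4 genes the lowest ZsGneg plate lay above the highest WT plate.

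Among the 31 lower genes were Zg16, Htr1b, Ceacam12, Flrt1, Serpina3j, Cyp2a5, Reg3a, Gjb6, Ckb and Vnn3, the 10 with the largest fold on the plate where each differed least. These 10 were read in 3.15% (Reg3a) to 22% (Cyp2a5) of thinned WT cells. Cyp2a5, a cytochrome of liver and olfactory tissue, had 22.6, 41.8, 37.6 and 13.6 CPM in ZsGneg and 298.6, 152.9, 127.1 and 577.0 CPM in WT cells. The serpin Serpina3j had 12.8, 16.1, 12.3 and 9.99 against 152.2, 85.9, 48.1 and 97.1 CPM. In both the highest ZsGneg plate lay below the lowest WT plate. In bulk, 8 of the 13 higher genes that were tested had a higher mean fit in ZsGneg and 0 passed the edgeR test, and 24 of the 31 lower genes had a lower one and 0 passed. For comparison, 43.5% and 56.4% of all tested genes had those directions.

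Against ZsGpos cells, 55 of 11203 genes were at least 2-fold higher on all 4 plates (0.491%) and 60 at least 2-fold lower (0.536%). Plate SCGC1381 holds only 2 ZsGpos cells, and without it 0.593% were higher and 1.25% lower. Ranked by the fold on the plate where each gene differed least, the first 10 upward were Prss2, Cyp1a2, Timd2, Scgn, Hrnr, Apoh, Thbs4, Bpifb6, Calcoco2 and Itih2. These 10 were read in 2.42% (Cyp1a2) to 12.1% (Timd2) of thinned ZsGneg cells. Timd2, a ferritin receptor, had 71.7, 188.7, 78.2 and 61.6 CPM in ZsGneg and 7.77, 21.1, 5.95 and 0 CPM in ZsGpos cells of the 4 plates. Ifi30, the reductase that opens disulphide bonds of class II antigens, had 1046, 1599, 1311 and 1234 CPM in ZsGneg, 675.3, 1102, 790.7 and 804.1 CPM in WT and 327.8, 545.4 and 415.4 CPM in ZsGpos cells of the first 3 plates. ZsGneg and ZsGpos did not overlap for Ifi30.

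By the same ranking the first 10 lower in ZsGneg were Pmp22, Zfhx4, Ramp2, Ahnak2, Igf2, Aqp5, Ltbp1, Serpinf1, Gng11 and Prrx1. These 10 were read in 6.91% (Pmp22) to 19.8% (Ahnak2 and Ltbp1) of thinned ZsGpos cells. Pmp22, a membrane protein of myelin and epithelia, had 2.13, 0.158, 0.708 and 0 CPM in ZsGneg and 48.8, 86.2, 17.9 and 90.4 CPM in ZsGpos cells. Igf2, an imprinted fetal growth factor, had 1.49, 0.501, 1.82 and 1.07 against 16.3, 8.66, 12.8 and 19.5 CPM. The list of tuft cell genes, one of the mimetic cell types of the medulla, summed to 126.3, 145.6, 114.3 and 87.5 CPM in ZsGneg and 1065, 354.5 and 209.3 CPM in ZsGpos cells. In the bulk libraries 41 of the 55 higher genes had the same direction and 1 passed the edgeR test (Ifi30), where 45.7% of all tested genes had that direction. Of the lower genes 57 were tested, 50 had the same direction and 6 passed: Igf2, Prrx1, Igf1, Serpina3n, Ndn and Prox1. Of all tested genes 54.2% had that direction.

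Bulk libraries gave the tests. The 4 ZsGneg libraries held 11611119 to 14886657 counts, the 4 ZsGpos libraries 10519116 to 12791664, and the 9 WT libraries, summed to 3 units by the first number of their titles, 35197445 to 43344149. Counts outside genes took 20.8% to 25.9% in ZsGneg, 33.2% to 37.9% in ZsGpos and 27.5% to 34.2% in WT libraries, so this share did not overlap between ZsGneg and either other group, and its part in the differences was not tested. The mitochondrial share was 5.54% to 7.83% in ZsGneg, 9.15% to 14.9% in ZsGpos and 7.23% to 7.74% in WT, so ZsGneg and ZsGpos did not overlap here either, and the part of this share was not tested. Y-linked genes were read in ZsGneg 01 to 03, ZsGpos 01 to 03 and WT 03, while ZsGneg 04, ZsGpos 04, WT 01 and WT 02 had Xist and almost no Y-linked reads. Sex thus crosses the comparison with WT in particular, and its part was not tested over all genes. Log2 fold changes, their SE and adjusted p come from 1 edgeR quasi-likelihood fit of all 3 groups with Benjamini-Hochberg adjustment over 18931 genes, and p measures only the spread between these libraries. In bulk RNA, fewer cells of a type and less RNA per cell cannot be told apart. The median log2 fold change over all genes was -0.15 against WT and -0.14 against ZsGpos.

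Against WT, 8 genes passed the edgeR test (0.0423%), 7 higher in ZsGneg (0.037%) and 1 lower (0.00528%). DESeq2 called 1.17% of genes higher and 1.57% lower. Fos was among the 7. It had 288.1, 218.2, 215.7 and 286.5 CPM in the 4 ZsGneg libraries (252.1 ± 40.6, SD), 49, 47.9 and 24 CPM in the 3 WT units and 447.8, 653.2, 714.4 and 927.6 CPM in the 4 ZsGpos libraries, and none of the 3 groups overlapped. The log2 fold change was 2.67 against WT (SE 0.32, adjusted p = 0.0203) and -1.39 against ZsGpos (SE 0.28, adjusted p = 0.0155) by edgeR, so ZsGneg lay between WT and ZsGpos. The call against WT was lost without WT 02, WT 03, ZsGneg 01 or ZsGpos 02, with the replicate number as a block and with only both groups in the fit (adjusted p up to 0.143). That against ZsGpos was lost without ZsGpos 04 (0.057) and with the WT libraries unsummed (0.12).

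Mdk had 281.97, 296.96, 292.3 and 268.8 CPM in ZsGneg (284.99 ± 12.5), 103.8, 69.7 and 94.4 CPM in WT and 294.7, 226.5, 122.2 and 203.8 CPM in ZsGpos libraries. Every ZsGneg library stood above every WT unit, with a log2 fold change of 1.69 (SE 0.27, edgeR adjusted p = 0.0451), as on all 4 single-cell plates. Since no unit overlapped, Fos and Mdk were higher than in WT both among units with Xist and among those with Y-linked reads. Only ZsGneg 04 had Xist in its sort, and only WT 03 had more than a trace of Y-linked reads. The part of sex was not tested. Against ZsGpos the groups overlapped, at 0.51 (SE 0.23, adjusted p = 0.266). The call against WT was lost under 12 of 17 alternatives (adjusted p up to 0.385). Egr1 had 265.3, 188.3, 185.8 and 184.6 CPM in ZsGneg and 70.5, 48.1 and 44.5 CPM in WT, a log2 fold change of 1.94 (SE 0.30, edgeR adjusted p = 0.0451). The other calls against WT were Rps19 (a ribosomal protein, 0.99), the interferon-induced Ifitm3 (1.39) and Ifi27l2a (1.55), Clu (the chaperone clusterin, 1.10) and, lower, Sgpl1 (the sphingosine phosphate lyase, -1.25). Each of the 8 calls was lost under at least 6 of the 17 alternatives. In single cells, 3 of the 7 higher genes were above WT on all 4 plates, where 8.77% of all genes were, and the lower gene was not below WT on all 4.

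**Figure D4:**
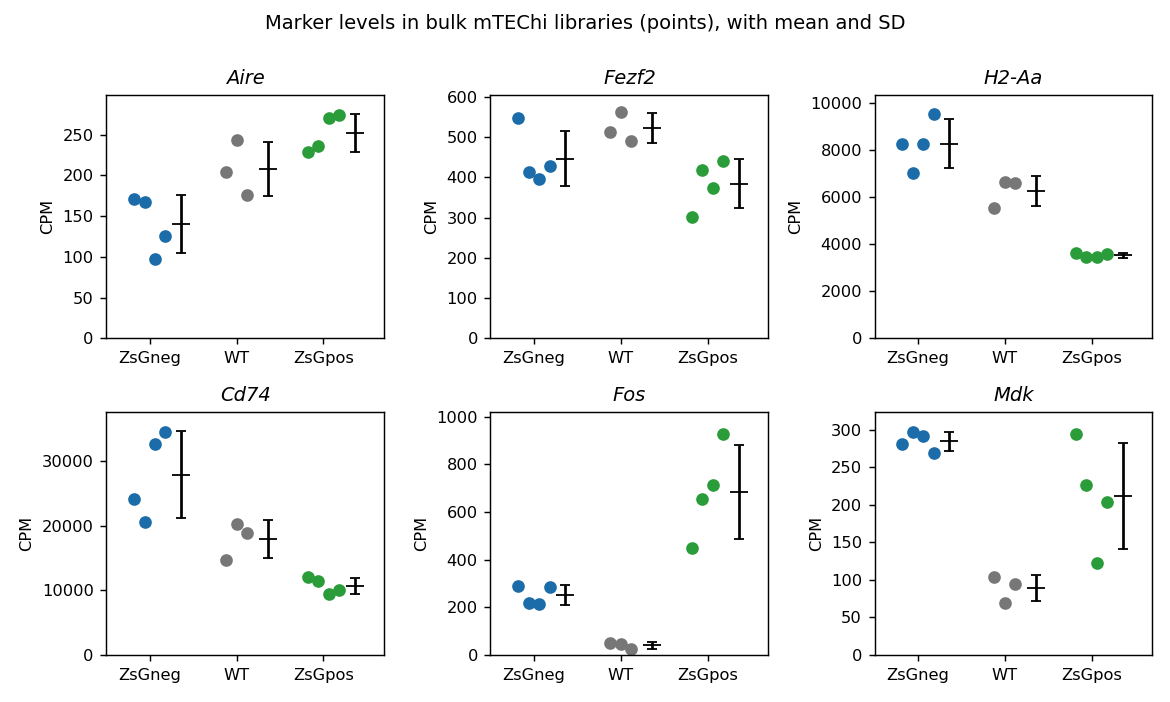
CPM of the 6 markers in each bulk unit of ZsGneg (4), WT (3) and ZsGpos (4), with the mean and SD of each group beside its points. Fos separates all 3 groups, Mdk separates ZsGneg from WT, and H2-Aa and Cd74 lie higher in ZsGneg than in ZsGpos in every library.

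Against ZsGpos, 2.66% of the 18931 genes passed the edgeR test, 2.04% higher in ZsGneg and 0.623% lower. DESeq2 called 5.26% higher and 5.27% lower. Of the class II list, 6 of 13 members were higher and 0 lower by this test, with a median log2 fold change of 0.55 over the 13. H2-Aa had 8265, 7026, 8269 and 9536 CPM in ZsGneg (8274 ± 1024), 3636, 3451, 3438 and 3565 CPM in ZsGpos and 5526, 6659.7 and 6618 CPM in WT. The ZsGneg libraries did not overlap with ZsGpos, at 1.30 (SE 0.12, edgeR adjusted p = 0.000185), nor with WT, where the test was not passed (0.42, SE 0.13, adjusted p = 0.284). H2-Aa was called against WT by DESeq2 (adjusted p = 0.0219) and by edgeR without a filter on low counts (0.00579), and under none of the other 15 alternatives (up to 0.57). Cd74 had 24066, 20562, 32596 and 34462 CPM in ZsGneg, 12117, 11416, 9405 and 9979.8 CPM in ZsGpos and 14636, 20336 and 18897 CPM in WT. Its log2 fold change against ZsGpos was 1.46 (SE 0.17, edgeR adjusted p = 0.000662). Against WT the libraries did not overlap either, and the test was not passed (0.66, SE 0.18, edgeR adjusted p = 0.277). It was passed with DESeq2 (adjusted p = 0.0105), without the filter (4.28e-12) and with the WT libraries unsummed (0.026), of 17 alternatives (up to 0.546).

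The other 4 class II calls were in processing rather than in the chains that bind peptide. H2-DMa, the other chain of the peptide exchanger, rose by 1.99 on the log2 scale, H2-Oa by 1.73, the protease Ctss, which trims the invariant chain, by 1.08 and Ifi30 by 0.76. Their edgeR adjusted p were 0.0011, 0.0112, 0.00941 and 0.0304, and the call of Ifi30 was lost under 11 of 17 alternatives (adjusted p up to 0.0858). H2-Ab1, by contrast, had 2699, 3111, 2494 and 2527 CPM in ZsGneg and 3219.7, 2517, 2477 and 3212 CPM in ZsGpos, with overlap and a log2 fold change of -0.01 (adjusted p = 0.981). In single cells H2-Aa overlapped between the sorts, with 9289, 12014 and 11562 CPM in ZsGpos cells of the first 3 plates. Class I had 3 of 14 members higher, where 2.04% of all genes were: the light chain B2m (0.46) and the proteasome activators Psme1 (0.90) and Psme2 (1.25).

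Aire and Fezf2 did not pass the edgeR test in either comparison. Aire had 170.5, 167.5, 97.6 and 125.6 CPM in ZsGneg, 204.7, 242.97 and 176.1 CPM in WT and 228.8, 236.01, 270.3 and 274.1 CPM in ZsGpos libraries. All ZsGneg libraries lay below all WT and ZsGpos units, with log2 fold changes of -0.55 (SE 0.24, adjusted p = 0.428) and -0.79 (SE 0.22, adjusted p = 0.08), and DESeq2 called the second (adjusted p = 0.00691). In single cells the order was not the same, since the ZsGneg level of Aire was above ZsGpos on each of the 3 plates. Fezf2 had 546.6, 414.2, 395.8 and 428.4 CPM in ZsGneg and overlapped with WT (513.1, 563.0 and 489.8 CPM) and with ZsGpos (302.7, 419.02, 372.95 and 440.9 CPM).

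Of 22 tested early response genes, 4 were lower in ZsGneg than in ZsGpos bulk libraries by the edgeR test, where 0.623% of all genes were, 0 were higher and 18 did not pass. The median log2 fold change of the 22 was -1.36. In single cells the sum of the list was lower than in ZsGpos on plate SCGC1373 and higher on plates SCGC1379 and SCGC1380. Beside Fos these were Hspa1a, which fell by 1.93 on the log2 scale (edgeR adjusted p = 0.0102), Hspa1b by 2.35 (0.00451) and Zfp36 by 1.37 (0.0381). Hspa1a and Hspa1b are near-identical copies, so their reads may be split by the counting. Against WT the same list had 2 higher members, Fos and Egr1, where 0.037% of all genes were higher. Tissue antigens had 7 of 81 tested members higher against ZsGpos, where 2.04% of all genes were, and 0 lower, with a median of 0.96. Against WT 0 of them were called by edgeR, with a median of -0.61. Among the 7 were Reg3g (1.63, edgeR adjusted p = 0.0139), Calcb (2.02, 0.0029), Tff3 (2.60) and S100a8 (1.08). The single-cell sums of the antigen list overlapped between these sorts. They were 8616, 6998 and 5535 CPM in ZsGneg and 7660, 5760 and 9714 CPM in ZsGpos cells of the first 3 plates. ZsGneg was thus higher on plates SCGC1373 and SCGC1379 and lower on SCGC1380.

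In bulk, interferon-induced genes had 4 of 23 members higher than in ZsGpos and 2 higher than in WT, where 2.04% and 0.037% of all genes were. Single cells had the opposite order against ZsGpos. There the list summed to 5758, 6714 and 6814 CPM in ZsGneg and 7247, 8213 and 7834 CPM in ZsGpos cells of the first 3 plates. The median cell held 299.6 CPM of Ifitm3 in ZsGneg and 1256 CPM in ZsGpos. Against WT the sum was lower on plate SCGC1373 and higher on SCGC1379, SCGC1380 and SCGC1381. In bulk against ZsGpos, Ccl5 rose by 2.13 (edgeR adjusted p = 0.00341) and Cd40 by 0.92 (0.0421), the latter lost under 12 of 17 alternatives. Lower than in ZsGpos were the basal keratins Krt5, which fell by 1.35 (edgeR adjusted p = 0.00539), and Krt15, by 1.94, and the p53 target Cdkn1a, which fell by 1.51. Igf1, the growth factor, had 475.6, 242.5, 323.5 and 219.9 CPM in ZsGneg and 1020.3, 893.2, 809.8 and 904.1 CPM in ZsGpos libraries without overlap. Beside this, 0 of 9 tested fibroblast genes passed the edgeR test, their median log2 fold change was -1.31, and they summed to 501.1, 576.1 and 404.5 CPM in ZsGpos cells of the first 3 plates. Their part was not tested. No PRC2 gene of 9, Hox gene of 21 or cell cycle gene of 37 passed the edgeR test in either comparison. Eed had 76.8, 49.4, 97.9 and 50 CPM in ZsGneg, 51.5, 29.9 and 46.4 CPM in WT and 58.4, 19.8, 85.8 and 17.1 CPM in ZsGpos libraries, with overlap in each pair of groups. The ZsGpos library was the lower one within each of the 4 library numbers, though no label ties these numbers.

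The largest differences were in genes with no or few counts in 1 sort. Sprr4 (a cornified envelope protein), Gm12324 and Cryba4 (a lens crystallin) had 0 counts in all 4 ZsGpos libraries and were at least 206.3-fold, 157.9-fold and 128.03-fold higher in ZsGneg, against a floor of 3 counts over the group. With few ZsGpos counts followed Cst9, M1ap, Topaz1, Muc3, Omt2b, Ppbp and Gm27529. In the other direction Gm38380, 5430420F09Rik, Eml1, Mob3c, Khdrbs2, Thbs3, Zfp619, Ihh, Rnf17 and Tshz2 had 0 counts in all 4 ZsGneg libraries and were at least 110.1-fold (Tshz2) to 318.2-fold (Gm38380) lower there. Of the higher and lower called genes, 95.6% and 96.6% did not overlap between ZsGneg and ZsGpos libraries. Passing the test already favours genes without overlap, and the share over all tested genes was not counted. In single cells, 25.5% of the higher called genes of at least 10 CPM were above ZsGpos on each of plates SCGC1373, SCGC1379 and SCGC1380 (against 16.3% of all genes), and 36 of the 88 lower ones were below (40.9%, against 15.3%). Of the 55 genes called against ZsGpos under the rule for named genes, 23 kept their call under all 17 alternatives: H2-Aa, Cd74, H2-DMa, H2-Oa, Ctss, Psme2, Rps19, Ifitm2, Ifitm3, Ly6e, Ccl5, Krt5, Hspa1a, Hspa1b, Reg3g, Calcb, Tff3, Lgals2, S100a8, Cst9, M1ap, Topaz1 and Gm38380.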

How the data were processed

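Per the labels' protocols, thymus was digested with Liberase and DNase I, epithelial cells were sorted, and polyadenylated RNA of single cells or of about 1000 cells was amplified by SMART-seq2. The authors deposited 1 table of unnormalized read counts per gene, with 45317 gene rows, 92 ERCC spike-in rows and 5 summary rows of unassigned reads, the last 2 kinds left out of totals. Per the submitters' processing notes the build was mm10, and HISAT 0.1.6 and HTSeq are among the tools listed, without roles. The sources used here do not give the strand setting, so reads of overlapping and antisense genes cannot be told apart. Of its columns, 2313 were used and 6 were not.

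Cells were filtered, thinned and summed per plate with Python 3.11.15, numpy 2.4.6, pandas 2.3.3 and scipy 1.17.1, and drawn with matplotlib 3.10.9. No 2 kept cells had identical counts. The 2-fold rule used 1 CPM added to each plate level and genes with a mean of at least 10 CPM in 1 of the compared groups. Bulk counts were tested in R 4.3.3 with edgeR 4.0.16 (TMM, filterByExpr, quasi-likelihood test, Benjamini-Hochberg at 0.05), and DESeq2 1.42.0 was an alternative. Tested on simulated counts of 18931 genes for the comparison of ZsGneg with WT, the edgeR fit recovered 194 of 200 genes changed 4-fold, with 7 false calls. The simulation gave every gene the same relative spread between libraries, changed only genes above a low level and held no difference of sex. It therefore does not show what share of changes was found in the real libraries. Same-numbered ZsGneg and other libraries were not taken as pairs, since no label ties their numbers.

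Named genes are the 6 markers, members of 29 gene lists, the genes with the most counts, the fewest cells or the largest plate ratio, those past 2-fold on every plate or called in bulk with the largest changes, and the 3 most like each marker. Members, lists and class thresholds were chosen with earlier results of these data known. Small pools of 100 cells entered no comparison, and only their Aire level on plate SCGC1373 is given. ChIP samples and samples labelled as repeat sequencing were not analysed here.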

Additional observations from a re-analysis of the deposited data

Results flagged for a closer look

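Groups of 4 libraries or plates were searched for a member whose gap to its nearest neighbour exceeded Dixon's 95% critical value as a share of the group's range. In all 15 groups (8.57%) had one. Chance gives about 1 in 20 for independent values of a normal distribution. Some of these groups held very low levels or shares close to all cells, for which that rate is not known.

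In single ZsGneg cells, plate SCGC1381 stood apart with 6099 CPM of early response genes (other plates from 1874 CPM), and plate SCGC1379 with 1524 CPM of myeloid and dendritic genes, of which Lyz2 was the most. In WT cells, Fezf2 was high on plate SCGC1379 (651 CPM) and read in the fewest cells on plate SCGC1381 (75.3%), H2-Aa was missing from a cell of plate SCGC1381 (98.7% of cells) and Cd74 from a cell of plate SCGC1379 (98.04%).

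Among bulk libraries, Egr1 was high in ZsGneg 01 (265.3 CPM, against 184.6 CPM in the lowest) and low in ZsGpos 01 (244.1 CPM). Ppbp, a platelet chemokine, was high in ZsGneg 03 (245.8 CPM, against 14 CPM in the lowest), and Dclk1, a tuft cell kinase, was high in the same library (71.7 CPM). In ZsGpos libraries Cst9 was read only in 02 (0.156 CPM), Topaz1 was highest in 03 (0.902 CPM), Ppbp in 04 (3.14 CPM), Ifitm2 in 01 (285.7 CPM) and Zfp36 in 04 (169.9 CPM).

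No-template wells A1, A2 and A3 of plate SCGC1380 held 51838, 73567 and 67466 gene counts, enough to pass the filter used for cells. The other 11 no-template wells held under 1000 counts each, among which were 16 reads of H2-Aa, 17 of Cd74, 1 of Aire and none of Fezf2, Fos or Mdk. What the 3 wells contained was not tested, and no kept ZsGneg cell is one of them.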

How the results depend on the processing

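Against WT, 8 genes (0.0423%) passed edgeR's test in bulk. DESeq2 called 2.74% of genes (1.17% higher, 1.57% lower), the fit without a filter on low counts 0.368%, the 9 WT libraries taken separately 0.768%, the fit of only the compared groups 1 gene (0.00583%), and leaving out 1 unit 0 to 5 genes (0 to 0.0269%). It was 0 without WT 02, WT 03, ZsGneg 01 or ZsGpos 02, where 1618, 1810, 1944 and 1750 genes had an unadjusted p under 0.05. Against ZsGpos, 2.66% passed edgeR's test, 10.5% with DESeq2 (5.26% higher, 5.27% lower) and 837 of 34551 genes (2.42%) without the filter. Leaving out 1 unit gave 1.65% (without ZsGpos 04) to 2.73%, and 1.74% without ZsGpos 02. With the replicate number as a block the shares were 0.00528% against WT and 1.81% against ZsGpos. Correlations of same-numbered libraries lay between -0.0208 and 0.0181, so the number is not shown to pair samples. ZsGneg 04 and ZsGpos 04 were nevertheless the only libraries of their sorts without Y-linked reads, and both had 0 CPM of Skint4 and Skint9. The blank of both Skint genes was not particular to this number, since WT 03, which had Y-linked reads, shared it. No single gene, level or share in the alternatives run reversed its direction. The balance of calls against WT did, from 7 higher and 1 lower to mostly lower with DESeq2, without WT 01 (1 higher, 3 lower) and with only the compared groups (0 higher, 1 lower). The cause of these changes was not tested.

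Genes 2-fold apart on every plate were fewer at 3-fold: 2 (0.0177%) instead of 14 higher and 8 (0.0708%) instead of 31 lower than WT, and 17 (0.152%) instead of 55 higher and 18 (0.161%) instead of 60 lower than ZsGpos. From 30 CPM, 5 (0.0791%) were higher than WT, and 19 (0.288%) higher and 39 (0.592%) lower than ZsGpos. Leaving out 1 plate, which relaxes the rule to 3 plates, gave 0.319% to 0.733% higher and 0.701% to 1.36% lower than WT, and 0.593% to 2.14% higher and 0.931% to 1.25% lower than ZsGpos. Any read without thinning was found for Aire in 86.7%, Fos in 58.5% and Mdk in 78.5% of ZsGneg cells. Depth limits shares of genes near 1 read in 50000, and ZsGpos plate SCGC1381 holds 2 cells.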

Other observations

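Aire gave different levels in bulk and in single ZsGneg cells. It had 140 ± 35.1 CPM (SD, n = 4) in bulk libraries and 1168 CPM over all single cells, 8.27-fold more. Of 3662 genes of at least 50 CPM in the cells, 2.92% had as low a ratio of bulk to cells, and the median log2 ratio of all of them was -0.40. The gap was 4.57-fold in WT (207.9 against 954 CPM) and 3.46-fold in ZsGpos (252.3 against 876 CPM). Fezf2 differed by 1.19-fold in ZsGneg, at 446.3 CPM in bulk and 532.6 CPM in single cells. The 3 small pools of plate SCGC1373, from the same sort, had 265.5, 333.95 and 464.04 CPM of Aire.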
